A study of Mus musculus with 10 samples.

Results

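The 42 genes described here stood at least 3-fold higher after long culture in 2i than in any other culture of mouse embryonic stem cells in the study. They were chosen by measured values: a gene entered when both long 2i libraries reached at least 5 CPM, a gene's reads per 1000000 reads counted in genes, and the lower of them was at least 3 times the highest of the other 8 libraries. Of 24015 genes, 46 met both limits, and Cyp1a1, Fkbp6, Nefm and Slc5a1 were set aside by name, which left 42. All 42 also passed the filter on low counts, as they had to through their long 2i level. Because the height in long 2i chose the genes, it is described here without a test, and the tests concern only the other 8 libraries.

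All cells carried a reporter of Wnt/β-catenin signalling and were grown on gelatin with leukaemia inhibitory factor (LIF), in serum or in 2i. There were 10 RNA-seq libraries, 2 for each of 5 cultures. Long 2i had more than 13 passages in 2i, second 2i had 13 passages in 2i, 6 in serum and 4 to 5 again in 2i, and first 2i had 5 to 6 passages in 2i. Serum return had more than 13 passages in 2i and then 6 in serum, and serum was the conventional culture. The inhibitors were given as 3 µM for GSK3 and 1 µM for ERK, and cells were split every 48 h. The labels name no mouse strain, sex or clone and do not say that the groups descend from one another.

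Gene counts totalled 16809070 to 27766338 per library. The labels do not call the replicates separate cultures. Each p-value therefore rests on the spread among the libraries, and that spread may be technical. The core factors of pluripotency were present in all 10 libraries: Pou5f1 had 896 and 956 CPM in long 2i, against 1058 to 1366 CPM in the other 8 libraries, and Sox2 had 384.5 and 407 CPM in long 2i, against 609.8 to 816 CPM. Serum return held 2506 and 15408 CPM of Rn45s, a ribosomal RNA precursor, in its 2 libraries. As the RNA comes from whole cultures, a change in the share of cells that express a gene and a change in RNA per cell cannot be told apart.

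2i joins an inhibitor of GSK3, which lets β-catenin accumulate as it does under a Wnt signal, with an inhibitor of the ERK pathway, through which FGF signals push stem cells towards differentiation. Cells in this medium are known for an even, naive state and for low DNA methylation, a mark that helps to keep germline genes silent. The questions asked of each gene were whether it differed between the media already in short 2i culture, whether it differed between second 2i and serum return, and whether serum return differed from serum.

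**Figure D1:**
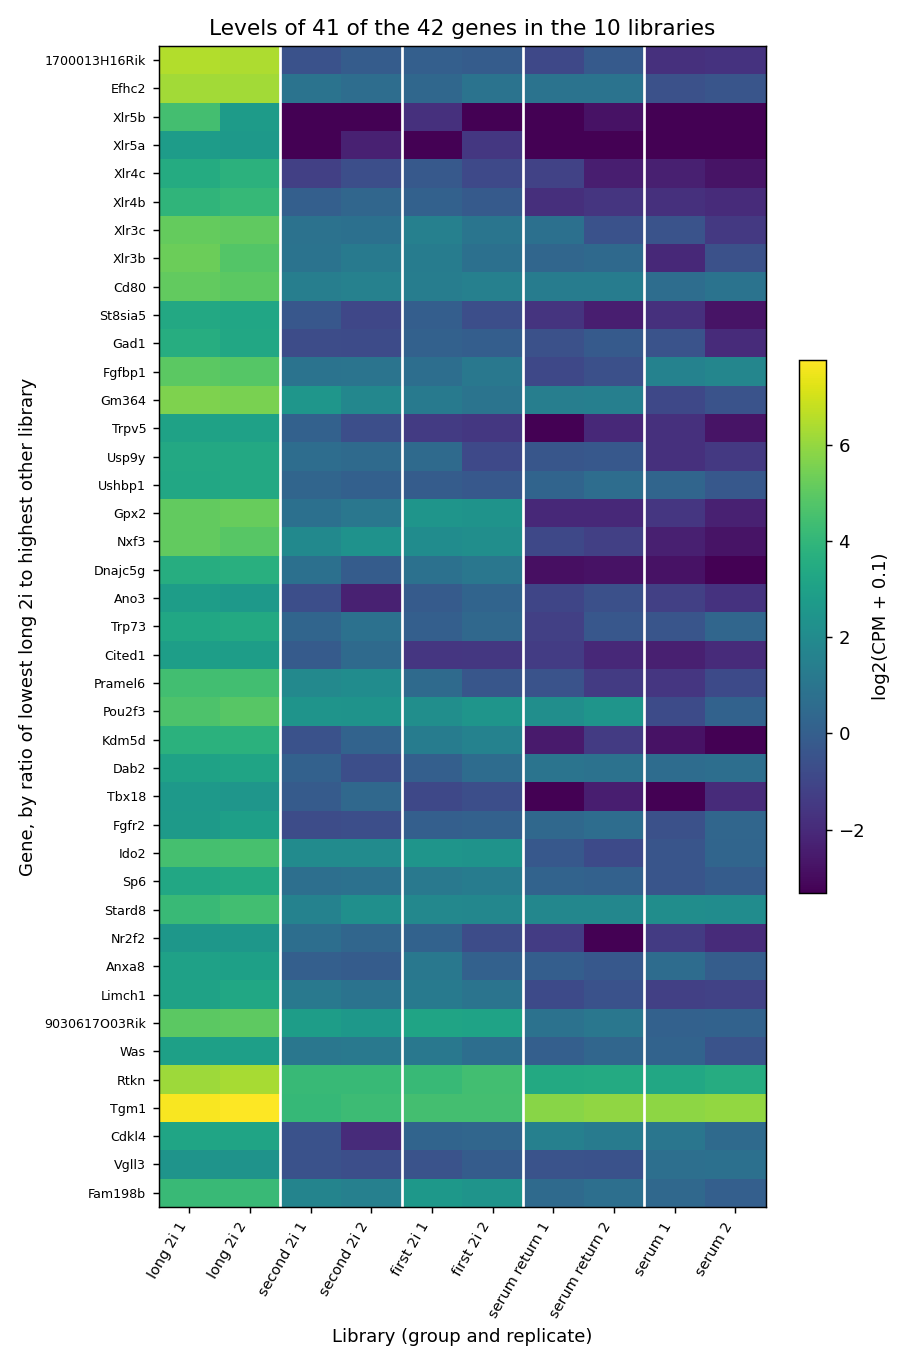
Level of 41 of the 42 genes (rows, ordered by the ratio of the lower long 2i library to the highest other library) in the 10 libraries (columns), as log2(CPM + 0.1) in colour. The 2 long 2i columns are the brightest of every row by the choice of genes, and 20 rows are also brighter in all 4 columns of second and first 2i than in the 4 serum columns.

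The excess in long 2i varied widely among the genes. The ratio of the lower long 2i library to the highest other library had a median of 5.82 and ran from 3.01 to 90.4, with 11 genes at 10 or more, 13 from 5 to under 10 and 18 under 5. Mean levels in long 2i ran from 5.12 to 212 CPM, not corrected for gene length. The 2 long 2i libraries stood close together, with a median ratio of the higher to the lower of 1.06. Xlr5b was the exception at 3.33, and no other gene exceeded 1.40. Just inside the limit lay Fam198b (3.01), Vgll3 (3.17), Cdkl4 (3.19), Tgm1 (3.27) and Rtkn (3.32), and just outside lay Arntl2 (2.91), Ahrr (2.90), Smoc1 (2.85), Rin1 (2.84) and Zhx1 (2.84).

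A peak did not mean absence elsewhere. The next highest group was first 2i for 19 genes, second 2i for 13, serum return for 5 and serum for 5. A 2i group thus came next for 32 of 42 genes (76.2%), against 65.1% of 3841 other tested genes whose highest mean was also in long 2i. In 20 of the 42 genes all 4 libraries of second and first 2i lay above all 4 serum libraries, a pattern found in 27.4% of all genes tested. In 2, Cdkl4 and Tgm1, they lay below, as in 26.8% of all genes tested. All genes tested are not a like reference for these counts, since the 42 were chosen for a peak in a 2i culture.

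Of the 42 genes, 6 belong to Xlr, a family of X-linked lymphocyte-regulated genes that lie close together on the X chromosome. The copies resemble one another most within the subfamilies Xlr3, Xlr4 and Xlr5. Xlr3b, Xlr4b and Xlr4c are known in mouse as imprinted in the brain. Their promoters are shown because they make visible how much sequence the copies share. The lines give the 100 bases before the first listed RefSeq start, from RefSeq for build GRCm38.p6, written 5′ to 3′ on the gene's strand with each CpG, the site of DNA methylation, in capitals. They lie at chrX:73192079-73192178 (+) for Xlr3b, chrX:73265391-73265490 (-) for Xlr3c, chrX:73214233-73214332 (+) for Xlr4b, chrX:73243131-73243230 (-) for Xlr4c, chrX:73117703-73117802 (-) for Xlr5a and chrX:73148741-73148840 (+) for Xlr5b.
Xlr3b: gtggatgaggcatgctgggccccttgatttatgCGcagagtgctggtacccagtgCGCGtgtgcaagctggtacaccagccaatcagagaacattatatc
Xlr3c: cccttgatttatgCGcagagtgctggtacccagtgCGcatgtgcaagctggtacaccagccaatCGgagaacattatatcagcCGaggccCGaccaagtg
Xlr4b: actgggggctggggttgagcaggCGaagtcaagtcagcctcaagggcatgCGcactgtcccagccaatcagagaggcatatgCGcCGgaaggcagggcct
Xlr4c: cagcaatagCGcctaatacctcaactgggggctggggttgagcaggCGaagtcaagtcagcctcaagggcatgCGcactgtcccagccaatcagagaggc
Xlr5a: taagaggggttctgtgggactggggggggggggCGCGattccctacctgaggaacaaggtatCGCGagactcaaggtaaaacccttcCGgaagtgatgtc
Xlr5b: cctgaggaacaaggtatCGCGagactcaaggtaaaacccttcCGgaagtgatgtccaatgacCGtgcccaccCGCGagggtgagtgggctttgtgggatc
Over the 250 bases before the start the paired copies were 83.7% (Xlr3b and Xlr3c), 82.4% (Xlr4b and Xlr4c) and 69.5% (Xlr5a and Xlr5b) identical when aligned, with gaps counted. The longest runs they shared without a mismatch had 119, 139 and 205 bases, in that order. For Xlr5a and Xlr5b 205 of 295 aligned columns were identical, as many as in the run, and the line of Xlr5a ends with the start of that of Xlr5b. The lower percentage of this pair thus reflects an offset of the listed starts. Between the subfamilies identity was 47.4 to 52.9%. Reads that aligned to more than 1 place were not counted for any gene, so the levels of these copies rest on the reads that tell them apart and are uncertain.

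Xlr3b had 38.8 and 27.8 CPM in long 2i, 1.79 and 2.21 CPM in second 2i, 2.40 and 1.62 CPM in first 2i, 1.15 and 1.30 CPM in serum return and 0.142 and 0.566 CPM in serum. Xlr3c ran in parallel with 35.4 and 33.7 CPM in long 2i, 1.74 and 1.63 CPM in second 2i, 2.78 and 1.91 CPM in first 2i, 1.62 and 0.602 CPM in serum return and 0.614 and 0.257 CPM in serum. In both, long 2i stood far above the low level of the short 2i cultures, and serum return lay between these and serum in Xlr3b but overlapped serum in Xlr3c. Xlr4b had 15.4 and 17.2 CPM in long 2i, against 0.784 to 1.16 CPM in the 4 libraries of second and first 2i and 0.154 to 0.232 CPM in the 4 serum libraries. Xlr4c had 11.1 and 13.9 CPM in long 2i and at most 0.753 CPM elsewhere. No other library came near the long 2i libraries in either gene.

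Xlr5a and Xlr5b were almost silent outside long 2i. Xlr5a had 6.96 and 6.28 CPM in long 2i, 5 counts in all in first 2i, 2 in second 2i and none in either serum group, so it was at least 89.6-fold higher than in serum against a floor of 3 counts over the group. Xlr5b had 22.1 and 6.66 CPM in long 2i, no counts in second 2i or serum, 4 in first 2i and 1 in serum return, and was at least 195-fold higher than in serum by the mean of long 2i, or 90.04-fold by its lower library alone. Its replicates differed more than those of any other of the 42 genes. The 3 Xlr genes outside the set also stood highest in long 2i: Xlr3a had 44.6 and 34.4 CPM in long 2i, against 14.8 to 21.8 CPM in the other 8 libraries, Xlr4a had 19.04 and 21.1 CPM against 3.40 to 7.67 CPM, and Xlr5c had 0.654 and 0.692 CPM against at most 0.0490 CPM. Xlr3a and Xlr4a missed the limit through their levels outside long 2i.

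**Figure D2:**
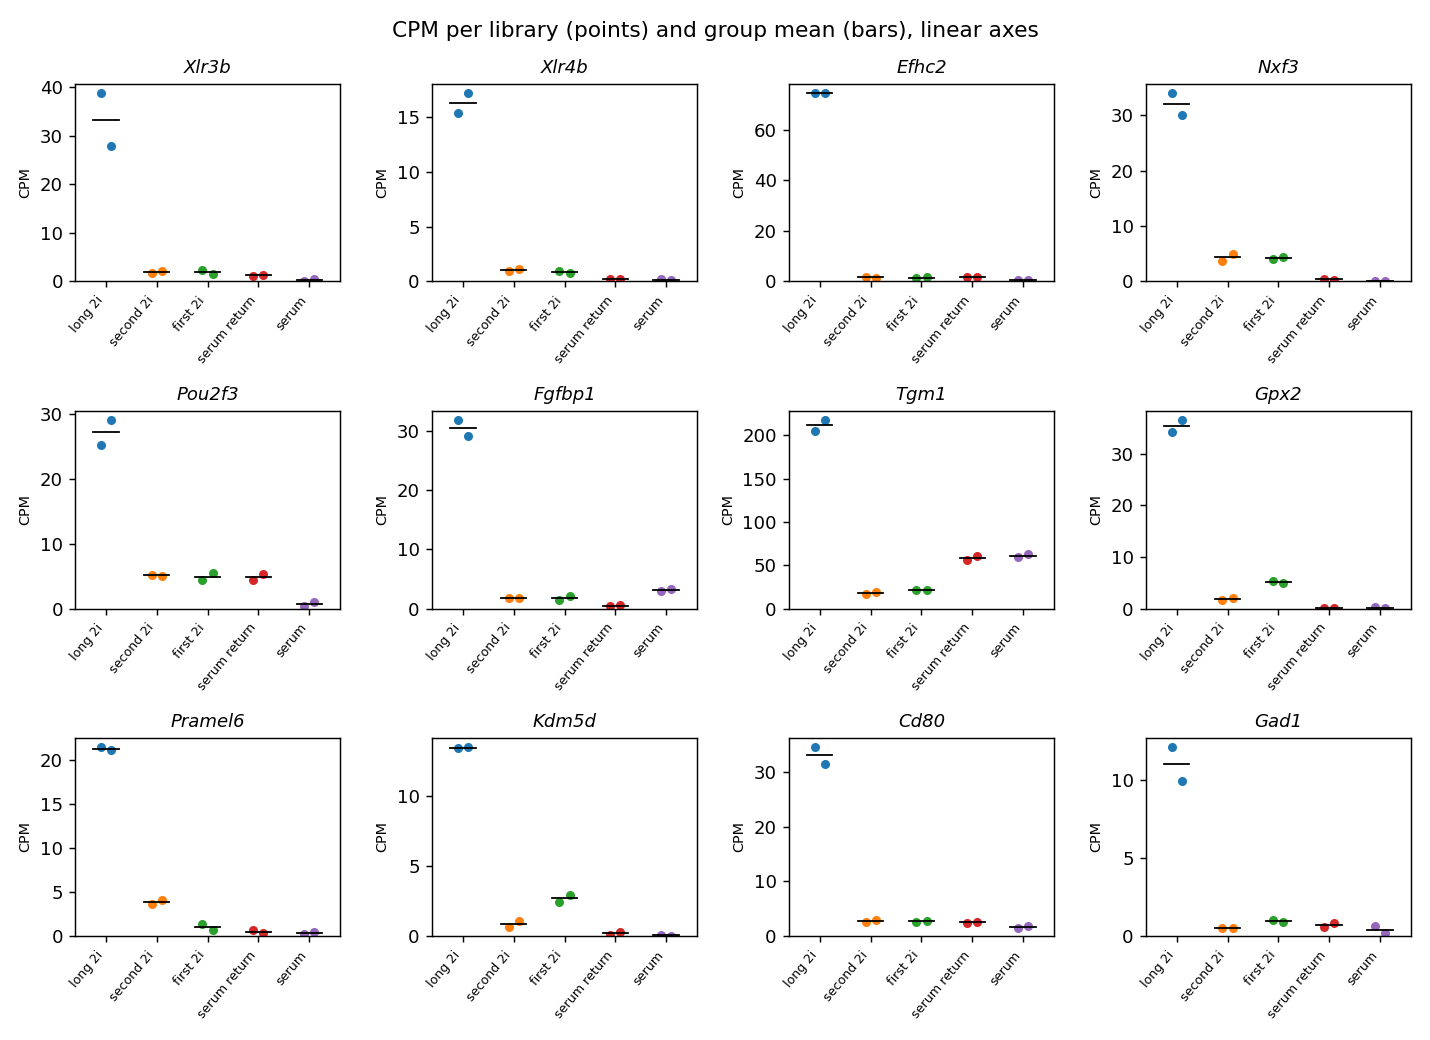
CPM of 12 of the genes in each library (points, 2 per group) with the group mean (bar), on linear axes that start at 0 and differ between panels. Long 2i lies above every other library in each panel, while the order of the remaining groups differs, with serum above both short 2i groups in Tgm1 and Fgfbp1 and serum return beside them in Pou2f3.

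Another 7 genes lie on the X chromosome, which held 13 of the 42 genes (31.0%) and 3.59% of the genes tested with a RefSeq position. 1700013H16Rik, known to the files by a clone name, had the widest gap, with 89.8 and 85.0 CPM in long 2i, against 0.189 to 0.941 CPM in the other 8 libraries. Its mean in long 2i was 98.6 times that in first 2i and 443 times that in serum. Efhc2, an EF-hand relative of a protein of ciliary axonemes, had 74.6 and 74.7 CPM in long 2i and 0.567 to 1.79 CPM elsewhere. Both genes were lowest in the 2 libraries of serum.

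Gm364, a gene model, had 49.1 and 46.9 CPM in long 2i, 5.59 and 3.37 CPM in second 2i, 2.30 and 1.81 CPM in first 2i, 2.56 and 2.69 CPM in serum return and 0.425 and 0.618 CPM in serum. Nxf3, of the nuclear RNA export factor family, had 34.0 and 29.9 CPM in long 2i, 3.69 and 4.94 CPM in second 2i, 4.04 and 4.41 CPM in first 2i, 0.432 and 0.324 CPM in serum return and 0.0945 and 0.0515 CPM in serum. Gm364 thus stood in serum return above first 2i, whereas Nxf3 followed the medium. Cited1, a transcriptional coactivator, had 7.26 and 7.13 CPM in long 2i, 0.815 and 1.31 CPM in second 2i, 0.235 and 0.245 CPM in first 2i, 0.288 and 0.139 CPM in serum return and 0.0945 and 0.154 CPM in serum. Was, an activator of actin nucleation best known in blood cells, had 7.73 and 7.51 CPM in long 2i and at most 2.16 CPM elsewhere. Stard8, which acts on small GTPases and carries a lipid-binding domain, had 18.1 and 20.9 CPM in long 2i and 2.93 to 4.47 CPM in the other 8 libraries, without a clear order among them.

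Kdm5d and Usp9y lie on the Y chromosome. Kdm5d, a demethylase of histone H3 lysine 4, had 13.4 and 13.5 CPM in long 2i, 0.597 and 1.05 CPM in second 2i, 2.45 and 2.94 CPM in first 2i, 0.0720 and 0.278 CPM in serum return and 0.0473 and 0 CPM in serum. Usp9y, a ubiquitin protease, had 10.1 and 10.2 CPM in long 2i, against 0.189 to 1.47 CPM elsewhere. The rest of the Y chromosome did not share this pattern. Ddx3y, an RNA helicase, had 130 and 115 CPM in long 2i, against 85.1 to 191 CPM in the other 8 libraries, and Eif2s3y, a translation initiation factor, had 105 and 92.4 CPM in long 2i, against 104 to 183 CPM. None of the 5 other tested Y-linked genes was higher in both long 2i libraries than in all other libraries.

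Besides Cited1 and Kdm5d, several of the genes encode regulators of transcription. Pou2f3, a POU factor of tuft cells and keratinocytes, had 25.3 and 29.1 CPM in long 2i, 5.27 and 5.10 CPM in second 2i, 4.37 and 5.49 CPM in first 2i, 4.39 and 5.42 CPM in serum return and 0.473 and 1.03 CPM in serum. Serum return overlapped both short 2i groups, and only serum lay below them. Sp6, an Sp/KLF factor of tooth and skin, had 9.99 and 10.6 CPM in long 2i, 1.58 and 1.68 CPM in second 2i, 2.16 and 2.45 CPM in first 2i, 1.04 and 0.973 CPM in serum return and 0.662 and 0.824 CPM in serum. Its groups did not overlap.

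Trp73, a relative of p53, had 9.70 and 10.7 CPM in long 2i and 0.324 to 1.68 CPM elsewhere. Tbx18, a T-box factor, had 6.37 and 5.64 CPM in long 2i, against 0.815 and 1.26 CPM in second 2i, 0.423 and 0.539 CPM in first 2i and at most 0.154 CPM in either serum group. Nr2f2, the nuclear receptor COUP-TFII, had 5.71 and 5.70 CPM in long 2i and at most 1.52 CPM elsewhere. Tbx18 and Nr2f2 were each lower in both serum groups than in both short 2i groups. Vgll3, a cofactor of TEAD factors, ran the other way outside long 2i: it had 5.18 and 5.06 CPM in long 2i, 0.526 to 0.833 CPM in second 2i, first 2i and serum return and 1.56 and 1.60 CPM in serum.

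Pramel6, a member of the Prame family expressed in embryonic stem cells and early embryos, had 21.5 and 21.2 CPM in long 2i, 3.64 and 4.05 CPM in second 2i, 1.32 and 0.686 CPM in first 2i, 0.612 and 0.278 CPM in serum return and 0.236 and 0.463 CPM in serum. Second 2i lay above first 2i, and both above the serum groups. Pramel7, its neighbour on chromosome 2, had 4.70 and 4.21 CPM in long 2i and at most 2.05 CPM elsewhere, so it missed both limits. Ushbp1, which binds the scaffold protein harmonin, had 9.94 and 10.3 CPM in long 2i and 0.721 to 1.48 CPM elsewhere, with overlapping groups. Dnajc5g, of the cysteine-string family of chaperones and known from testis, had 12.02 and 12.7 CPM in long 2i, 1.63 and 0.841 CPM in second 2i, 1.65 and 2.01 CPM in first 2i and 3 counts in all in the 4 serum libraries.

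Genes of signalling at the cell surface formed another group. Cd80, the ligand of CD28 and CTLA4 on antigen-presenting cells, had 34.6 and 31.5 CPM in long 2i, against 2.41 to 2.84 CPM in second 2i, first 2i and serum return and 1.46 and 1.75 CPM in serum. Fgfbp1, a secreted carrier that releases FGFs from the matrix, had 31.8 and 29.1 CPM in long 2i, 1.79 and 1.84 CPM in second 2i, 1.51 and 2.06 CPM in first 2i, 0.432 and 0.556 CPM in serum return and 2.93 and 3.35 CPM in serum. For Fgfbp1 the 2 serum groups stood on either side of the short 2i groups. Fgfr2, an FGF receptor, had 6.43 and 7.51 CPM in long 2i, 0.489 and 0.526 CPM in second 2i, 0.941 and 0.981 CPM in first 2i, 1.26 and 1.48 CPM in serum return and 0.567 and 1.18 CPM in serum.

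The other FGF receptors stayed outside the limits that chose Fgfr2. Fgfr1 had 159 and 163 CPM in long 2i and 96.3 to 129 CPM elsewhere, so it too was highest in long 2i, while Fgfr3 had 2.50 and 2.77 CPM in long 2i, 0.376 to 0.923 CPM in the short 2i libraries and 51.5 to 59.6 CPM in the 4 serum libraries. Of 16 tested genes in a list of ERK targets, 0 rose and 15 fell in first 2i against serum (35.1% of all genes tested were called higher and 34.9% lower), and 2 rose and 12 fell in second 2i against serum return (32.3% higher and 33.3% lower). The list summed to 1018 to 1035 CPM in long 2i, 982 to 993 CPM in second 2i, 614 to 630 CPM in first 2i, 2007 to 2044 CPM in serum return and 1964 to 2001 CPM in serum, so long 2i lay just above second 2i and well below both serum groups. Dab2, an endocytic adaptor of the primitive endoderm, had 8.33 and 8.84 CPM in long 2i, 0.978 and 0.526 CPM in second 2i, 0.941 and 1.42 CPM in first 2i, 1.84 and 1.71 CPM in serum return and 1.42 and 1.49 CPM in serum. It was the only one of the 42 genes found in any of 23 lists of lineage markers and pathways.

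Trpv5, an epithelial calcium channel, had 8.21 and 8.04 CPM in long 2i and at most 0.978 CPM elsewhere. Ano3, of the anoctamin family of membrane proteins, had 7.14 and 6.34 CPM in long 2i and 0.105 to 1.08 CPM elsewhere. In both genes every other library lay far below the long 2i pair. Anxa8, an annexin that binds membrane lipids under calcium, had 8.09 and 7.72 CPM in long 2i and 0.741 to 2.07 CPM elsewhere. Fam198b, a Golgi protein listed by RefSeq as Gask1b, had 18.1 and 18.5 CPM in long 2i, 3.10 and 2.79 CPM in second 2i, 6.02 and 5.20 CPM in first 2i, 1.33 and 1.57 CPM in serum return and 1.23 and 0.927 CPM in serum. First 2i stood above second 2i in Fam198b, and both above serum.

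Enzymes made up much of the rest. Tgm1, the transglutaminase that crosslinks the cornified envelope of skin, had 205 and 218 CPM in long 2i, 17.0 and 19.2 CPM in second 2i, 21.9 and 21.9 CPM in first 2i, 56.1 and 60.7 CPM in serum return and 59.6 and 62.6 CPM in serum. Long 2i was 9.66 times first 2i and 3.46 times serum, so the gene was lower in short 2i than in serum and higher in long 2i than in both. Tgm2, the widely expressed transglutaminase, had 8.33 and 11.5 CPM in long 2i, against 21.1 to 76.2 CPM elsewhere. Gpx2, the glutathione peroxidase of gut epithelium, had 34.1 and 36.5 CPM in long 2i, 1.63 and 2.00 CPM in second 2i, 5.41 and 5.05 CPM in first 2i, 0.144 and 0.139 CPM in serum return and 0.236 and 0.103 CPM in serum. Every 2i library of Gpx2 lay above every serum library.

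Ido2, which degrades tryptophan, had 22.2 and 23.4 CPM in long 2i, 4.02 and 4.00 CPM in second 2i, 5.46 and 5.10 CPM in first 2i, 0.720 and 0.463 CPM in serum return and 0.662 and 1.13 CPM in serum. Its neighbour and relative Ido1 had 0.297 and 0.586 CPM in long 2i and at most 0.0490 CPM elsewhere. 9030617O03Rik, listed by RefSeq as Dglucy, had 31.6 and 32.3 CPM in long 2i, 7.17 and 5.99 CPM in second 2i, 8.84 and 8.58 CPM in first 2i, 1.73 and 1.99 CPM in serum return and 0.992 and 1.03 CPM in serum. Both genes fell into 3 tiers, long 2i, short 2i and serum.

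Gad1, which makes the transmitter GABA from glutamate, had 12.1 and 9.90 CPM in long 2i, 0.489 and 0.473 CPM in second 2i, 0.988 and 0.882 CPM in first 2i, 0.576 and 0.787 CPM in serum return and 0.614 and 0.154 CPM in serum. Gad2, the second enzyme of that step, showed another order: 0 and 0.106 CPM in long 2i, 2.39 and 2.26 CPM in second 2i, 6.68 and 7.11 CPM in first 2i and at most 0.0463 CPM in the 4 serum libraries. Gad2, the higher of the 2 isoenzymes in short 2i, was thus at or near 0 in long 2i. St8sia5, which adds sialic acid to gangliosides, had 10.2 and 9.32 CPM in long 2i and at most 0.894 CPM elsewhere.

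Cdkl4, a kinase related to the cyclin-dependent kinases, had 9.22 and 8.84 CPM in long 2i, 0.597 and 0.158 CPM in second 2i, 1.08 and 1.18 CPM in first 2i, 2.77 and 2.32 CPM in serum return and 1.94 and 1.34 CPM in serum. Like Tgm1, it was lower in all 4 short 2i libraries than in all 4 serum libraries. Rtkn, an effector of small GTPases, had 69.7 and 80.7 CPM in long 2i, 17.9 and 17.8 CPM in second 2i, 17.6 and 21.0 CPM in first 2i, 10.6 and 10.9 CPM in serum return and 9.88 and 11.4 CPM in serum. Limch1, a regulator of non-muscle myosin, had 8.39 and 9.53 CPM in long 2i, 2.12 and 1.79 CPM in second 2i, 2.30 and 1.81 CPM in first 2i and 0.331 to 0.602 CPM in the 4 serum libraries. Rtkn and Limch1 stood above serum in every 2i library.

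The first test asked which of the genes already differed from serum after 5 to 6 passages in 2i. In edgeR's quasi-likelihood test with Benjamini-Hochberg adjustment over 14220 genes, 27 of the 42 rose in first 2i against serum (35.1% of all genes tested were called higher), 4 fell (34.9% called lower) and 11 did not pass at an adjusted p of 0.05. Xlr5a and Xlr5b are among the 42 in each such count but had at most 5 counts in any group outside long 2i. They entered the tests through their long 2i level, and without those libraries 40 of the 42 would have been tested. The median log2 fold change was 1.74 over the 42 genes and 0.01 over all genes tested. Here and in the later tests all genes tested are not a like reference, since the 42 were chosen for a peak in a 2i culture. Shares among other genes with their highest mean in long 2i were not computed for the tests. 9030617O03Rik rose 8.42-fold (log2 fold change 3.07 ± 0.19, SE; adjusted p = 6.24e-12), Gpx2 28.8-fold (4.85 ± 0.30; adjusted p = 1.1e-11; 47.2-fold without replicate 1 of serum, whose 2 libraries held 7 of its counts) and Fam198b 5.07-fold (2.34 ± 0.21; adjusted p = 4.18e-09). Nxf3 also rose (adjusted p = 7.95e-11), but serum held only 3 of its counts, against 176 in first 2i, so no fold is given, and Kdm5d (adjusted p = 9.36e-09) had 1 count in serum and 112 in first 2i.

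Ido2 rose 5.81-fold and Pou2f3 6.49-fold, or 10.1-fold without replicate 2 of serum. Of the Xlr genes, Xlr4b rose 4.92-fold. Xlr3b rose 5.65-fold, which was 3.47-fold without replicate 1 of serum and 13.45-fold without its replicate 2, and Xlr3c 5.15-fold, which was 8.79-fold without replicate 1 of serum. Xlr4c rose as well, with 25 counts in first 2i and 3 in serum. The 4 genes that fell in first 2i included Tgm1 (2.84-fold; adjusted p = 2.16e-13), Fgfbp1 (1.79-fold; adjusted p = 0.0014) and Vgll3 (2.22-fold; adjusted p = 0.00286). These 3 thus stood below serum in first 2i, though above it in long 2i. Single libraries decided 8 of the calls, among them the following 7. Usp9y, Was, Pramel6, Nr2f2 and Gad1 missed the threshold without replicate 1 of first 2i (edgeR adjusted p from 0.0632 to 0.235). Pramel6, Cd80 and Tbx18 missed it without replicate 1 of serum (0.0635 to 0.108), and Was, Nr2f2 and Gad1 without replicate 2 of serum (0.0655 to 0.275).

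The second test set second 2i against serum return. In edgeR 22 of the 42 rose (32.3% of all genes tested were called higher), 4 fell (33.3% called lower) and 16 did not pass, with a median log2 fold change of 0.79 over the 42 genes and 0.00 over all genes tested. Nxf3 rose 11.1-fold (3.48 ± 0.27, SE; adjusted p = 6.15e-10), Gpx2 12.4-fold (3.63 ± 0.38; adjusted p = 5.29e-08), Pramel6 8.21-fold (3.04 ± 0.31; adjusted p = 2.87e-08; 13.5-fold without replicate 1 of serum return), Ido2 6.57-fold (adjusted p = 8.07e-09) and 9030617O03Rik 3.56-fold (adjusted p = 5.27e-09). Nr2f2 rose with 8 counts in serum return, 8.06-fold with both libraries of that group and 4.596-fold without its replicate 2. Its fold without replicate 1 is not given, since replicate 2 had no counts. Tbx18 rose with 39 counts in second 2i and 2 in serum return. Tgm1 fell 3.21-fold (adjusted p = 7.66e-14), Cdkl4 6.73-fold (adjusted p = 1.85e-06; 15.6-fold without replicate 1 and 4.24-fold without replicate 2 of second 2i), Fgfr2 2.65-fold and Dab2 2.36-fold.

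In all, 18 genes (42.9%, against 23.3% of all genes tested) rose in both tests, among them Gpx2, Ido2, Nxf3, Kdm5d, Usp9y, Rtkn and Xlr4b, and Tgm1 (2.38%, against 23.8%) fell in both. Another 9 (21.4%, against 9.63%) rose in first 2i and did not pass in second 2i against serum return: 1700013H16Rik, Ano3, Cd80, Efhc2, Gad1, Pou2f3, Xlr3b, Xlr3c and Xlr4c. Cited1, Trp73 and Trpv5 (7.14%, against 6.81%) rose in the second test after not passing in the first. A gene that passed in one test and not in the other is not thereby shown to differ, which the difference of the responses below addresses. The second test lost, without replicate 1 of second 2i, Gm364, St8sia5, Usp9y and Sp6 (edgeR adjusted p from 0.0657 to 0.166), and without its replicate 2 it lost Dab2, Usp9y and Sp6 (0.0535 to 0.118). Leaving out replicate 1 of serum return lost Trp73, Was, Usp9y and Sp6 (0.0516 to 0.115), and without its replicate 2 St8sia5, Usp9y and Sp6 (0.0592 to 0.0967).

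**Figure D3:**
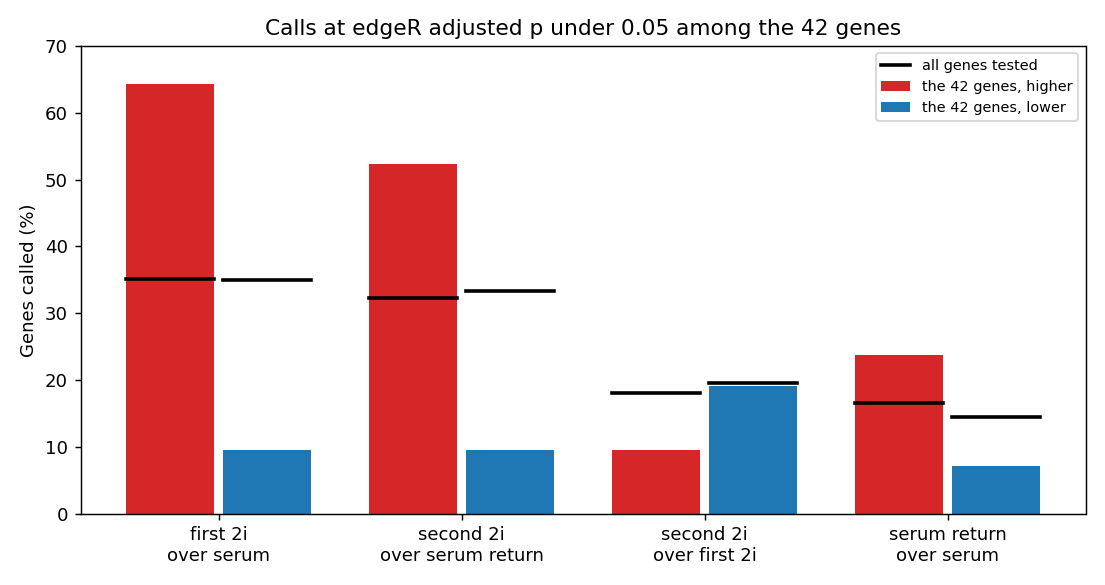
Percent of the 42 genes called higher (red) and lower (blue) in edgeR at an adjusted p under 0.05 in 4 comparisons that use no long 2i library, with black lines for all 14220 genes tested. In first 2i against serum and in second 2i against serum return the red bars exceed their black lines and the blue bars fall short of them, while in second against first 2i neither bar exceeds its line. The lines are not a like reference, since the 42 genes were chosen for a peak in a 2i culture.

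For part of the genes the change in second 2i lay below that in first 2i on the log2 scale. The difference, second 2i over serum return minus first 2i over serum, passed in edgeR for 15 of the 42 genes, 14 lower (21% of all genes tested were called lower) and 1 higher (18.4% called higher). The median difference on the log2 scale was -0.91 over the 42 genes and -0.02 over all genes tested. Pou2f3 had a log2 fold change of 0.10 in second 2i against serum return and 2.70 in first 2i against serum, a difference of -2.60 ± 0.33 (SE; adjusted p = 5.76e-06), or -3.24 without replicate 2 of serum. For 9030617O03Rik the difference was -1.24 ± 0.27 (adjusted p = 0.00132), and for Fam198b -1.31 ± 0.32 (adjusted p = 0.00277). Cdkl4 had a difference of -2.18 ± 0.52 (adjusted p = 0.00243), or -3.40 without replicate 1 and -1.52 without replicate 2 of second 2i, as it fell further in second 2i (log2 -2.75) than in first 2i (-0.57, not passed). Fgfbp1 differed in the other direction by 2.73 ± 0.37 (adjusted p = 9.5e-06), as it rose 3.71-fold in second 2i against serum return and fell in first 2i. Such a difference can lie between the 2 short 2i groups or between the 2 serum groups. For Pou2f3 second 2i and first 2i were close (log2 0.09), while serum return stood above serum (2.69). Fgfbp1 likewise had 0.04 between the 2i groups and -2.69 between the serum groups. Fam198b (-0.92 and 0.39) and Cdkl4 (-1.56 and 0.62) differed more between the 2i groups. So did Ano3 (-1.51 and 0.76), Fgfr2 (-0.90 and 0.63) and Gad1 (-0.94 and 0.74). The serum groups differed more in Xlr3b (0.00 and 1.78), Efhc2 (0.14 and 1.49), 1700013H16Rik (-0.28 and 1.53), Xlr3c (-0.47 and 1.37) and 9030617O03Rik (-0.39 and 0.85). In Gm364 second 2i stood above first 2i (1.12), with 2.31 between the serum groups. Not all of these steps passed by themselves. Nxf3 and Kdm5d are not split, since serum held 3 and 1 of their counts.

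The 10 other genes with a negative difference were Efhc2, Kdm5d, Xlr3c, 1700013H16Rik, Nxf3, Ano3, Fgfr2, Gm364, Xlr3b and Gad1, and each of them missed the threshold without 1 library or more. Of the 14 genes with a negative difference, 12 had risen in first 2i, while Cdkl4 and Fgfr2 had not passed there and fell in second 2i; for Fgfr2 the log2 fold changes were -1.41 in second 2i and 0.12 in first 2i. Without replicate 1 of first 2i Xlr3c, Fgfr2, Gm364, Xlr3b and Gad1 were lost (edgeR adjusted p from 0.0545 to 0.12), which left 9 of 14, and without its replicate 2 Efhc2, Ano3, Fgfr2 and Gad1 (0.061 to 0.0663). Without replicate 1 of serum return Xlr3c, Nxf3, Gm364, Xlr3b and Gad1 were lost (0.051 to 0.283), which left 9, and without its replicate 2 Kdm5d, 1700013H16Rik, Ano3, Fgfr2, Gm364, Xlr3b and Gad1 (0.0576 to 0.166), which left 8 with 1 gained. Leaving out replicate 1 of second 2i lost 1700013H16Rik, Fgfr2, Xlr3b and Gad1 (0.0516 to 0.0849), and without its replicate 2 Xlr3c, Ano3, Fgfr2, Gm364, Xlr3b and Gad1 (0.0509 to 0.119), which left 8. Without replicate 1 of serum 1700013H16Rik, Fgfr2, Gm364 and Xlr3b were lost (0.0587 to 0.191), without its replicate 2 Xlr3c, Nxf3, Ano3 and Gad1 (0.0779 to 0.204), and without replicate 1 of long 2i Gad1 (0.0501).

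**Figure D4:**
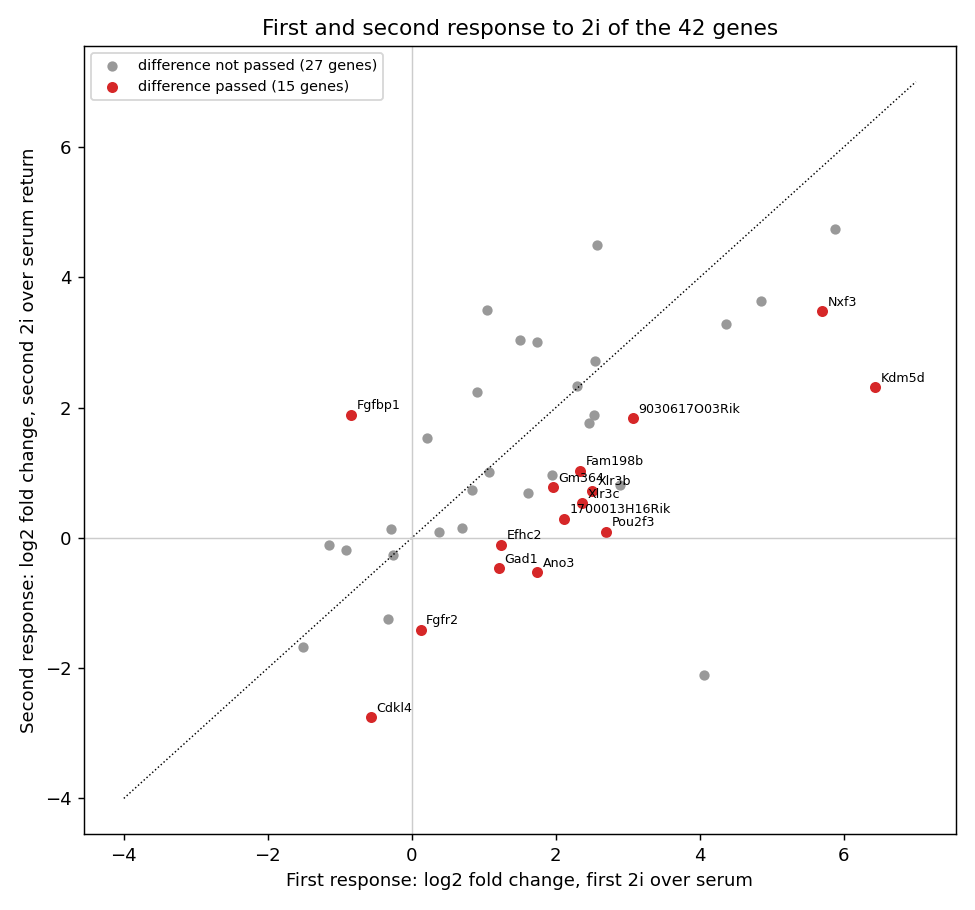
Second response (log2 fold change of second 2i over serum return, y axis) against first response (first 2i over serum, x axis) of the 42 genes, with the line of equal responses dotted. The 15 genes whose difference passed are red and named: Fgfbp1 lies above the line at 2.73 and the other 14 below it; fitted values of genes with 3 or fewer counts in a serum group, such as Kdm5d and Nxf3, depend on the prior count.

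The 2 responses share no library. Across the 42 genes their log2 fold changes had a Pearson r of 0.57 and a Spearman coefficient of 0.56, against a Pearson r of 0.83 over all genes tested, as a description across genes, which are not independent replicates. Fitted values of genes with few counts enter these coefficients and depend on the prior count, such as those of Xlr5a and Xlr5b, with at most 5 counts in any group compared. How far such values moved the coefficients was not tested. Set against first 2i itself, second 2i had 4 genes higher (18.1% of all genes tested were called higher), 8 lower (19.6% called lower) and 30 that did not pass, shares at or below those of all genes tested. Pramel6 stood 3.84-fold higher in second 2i (log2 1.94 ± 0.27, SE; edgeR adjusted p = 1.37e-05), Gm364 2.18-fold (adjusted p = 0.000527) and Cited1 4.40-fold (adjusted p = 0.00121). Gpx2 stood 2.85-fold lower (edgeR adjusted p = 2.93e-06), Kdm5d 3.20-fold (adjusted p = 0.000286) and Fam198b 1.89-fold (adjusted p = 0.00038).

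The remaining calls between second and first 2i rested on single libraries. Without replicate 1 of first 2i the count of lower genes was 5, and the calls lost included Tgm1, 9030617O03Rik and, among the higher, Trpv5 (edgeR adjusted p from 0.0788 to 0.108). Without replicate 2 of first 2i Tgm1, 9030617O03Rik, Ano3 and Trpv5 were lost (0.063 to 0.135), and without replicate 1 of second 2i Tgm1 and Trpv5 (0.216 to 0.316). Without replicate 2 of second 2i the count of lower genes was 4, and the calls lost included Cdkl4, 9030617O03Rik and Ano3 (0.167 to 0.294).

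Serum return was then set against serum, in the same medium. The 2 groups differ in earlier passages in 2i, in their passages in all and perhaps in descent, which cannot be told apart. In edgeR 10 of the 42 genes rose (16.5% of all genes tested were called higher), 3 fell (14.5% called lower) and 29 did not pass, with a median log2 fold change of 0.42 over the 42 genes and 0.02 over all genes tested. Pou2f3 stood 6.45-fold higher in serum return (log2 2.69 ± 0.27, SE; adjusted p = 3.94e-07; 10.1-fold without replicate 2 of serum), Gm364 4.95-fold (2.31 ± 0.32; adjusted p = 2.75e-05) and Efhc2 2.81-fold (1.49 ± 0.27; adjusted p = 0.000357). Fgfbp1 stood 6.45-fold lower (log2 -2.69 ± 0.27; adjusted p = 3.63e-07) and Vgll3 2.61-fold (adjusted p = 0.00229). These 5 calls held without any single library.

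The other 7 genes called higher in serum return, 9030617O03Rik, Xlr3b, Nxf3, 1700013H16Rik, Usp9y, Xlr3c and Cd80, did not hold in this way. The count of higher genes was 5 without replicate 1 of serum, 5 without its replicate 2, 5 without replicate 1 of serum return and 5 without its replicate 2, and the calls lost then had edgeR adjusted p from 0.0546 to 0.214, 0.0515 to 0.243, 0.0636 to 0.649 and 0.0663 to 0.208, in that order. Xlr3c was also lost without replicate 1 (0.0527) or 2 (0.0528) of second 2i. The replicates of Xlr3c in serum return, at 1.62 and 0.602 CPM, overlapped those of serum, at 0.614 and 0.257 CPM. The 5 genes Anxa8, Stard8, Ushbp1, Xlr5a and Xlr5b passed in none of the 5 contrasts, the last 2 with at most 5 counts in any of the groups compared.

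The chromosomes of the genes were taken from RefSeq by symbol. Besides X and Y, the 42 genes were spread over 15 autosomes with 1 to 3 genes each, and chromosomes 1, 10, 13 and 19 held none. The level of whole chromosomes differed in long 2i as well. Over 12447 genes outside the 42 with a mean of at least 1 CPM, the median log2 ratio of long 2i to the mean of the other 4 groups was -0.48 on chromosome 1, 0.35 on chromosome 16, 0.28 on chromosome 6 and 0.21 on X, and from -0.03 to 0.11 on the remaining autosomes. Both long 2i libraries gave such values, with -0.48 and -0.50 on chromosome 1 and 0.35 and 0.34 on chromosome 16. In the other groups the chromosome medians ran from -0.11 to 0.07 in second 2i, from -0.07 to 0.10 in first 2i, from -0.14 to 0.10 in serum return and from -0.26 to 0.06 in serum, where X was lowest.

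Cd80 and Vgll3 lie on chromosome 16 and Rtkn and Trpv5 on chromosome 6. Both long 2i libraries exceeded all 8 others in 19.5% of all genes tested. Outside the 42 genes this held for 47.9% of the genes of chromosome 16, 37.6% of chromosome 6, 30.0% of X and 4.72% of chromosome 1. The part of these chromosome-wide shifts in the levels of the genes that lie there was not tested.

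**Figure D5:**
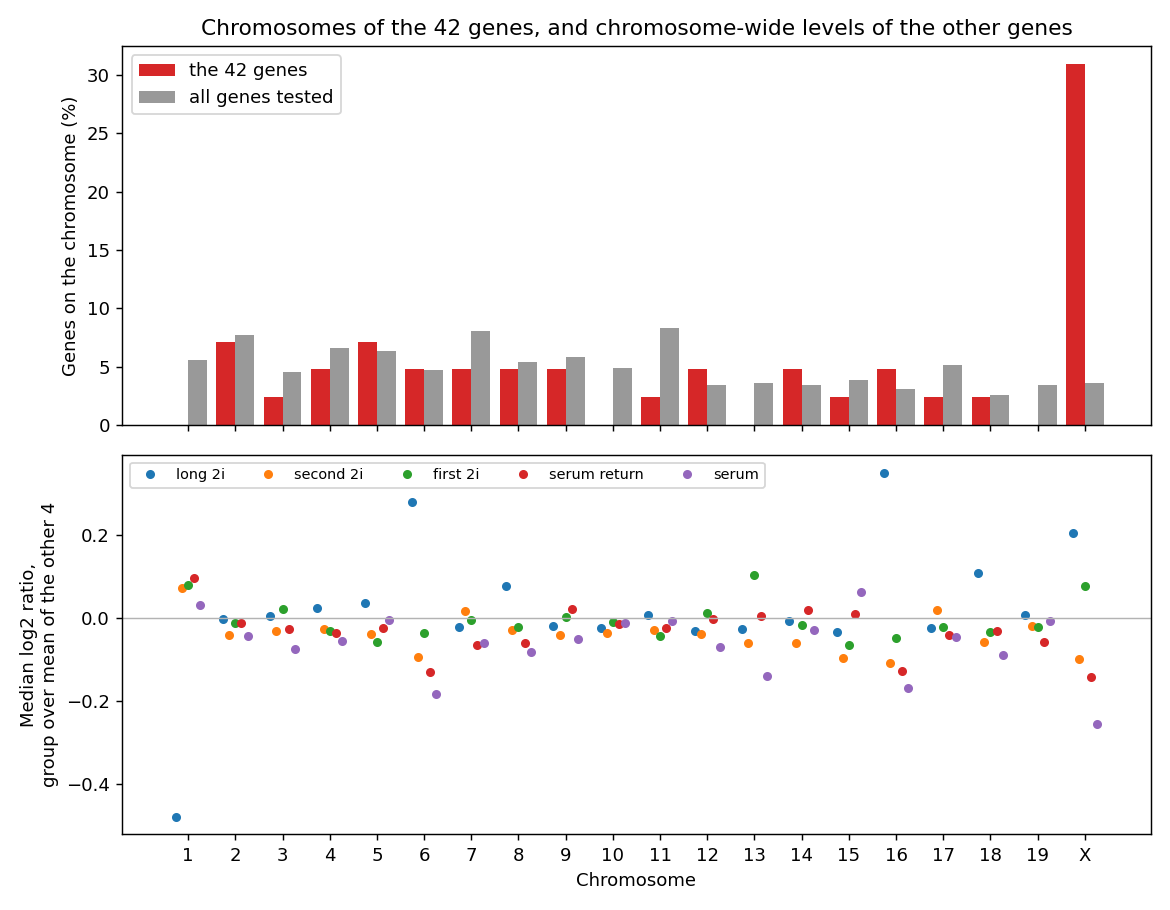
Top, the percent of the 42 genes (red) and of all genes tested (grey) on each autosome and X; bottom, the median log2 ratio of each group to the mean of the other 4 groups over the other genes of each chromosome. X holds 31.0% of the 42 genes, and long 2i stands apart at -0.48 on chromosome 1, 0.35 on chromosome 16 and 0.28 on chromosome 6; chromosome Y, with 2 of the 42 genes, is not drawn.

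Next neighbours along the chromosome were looked up in the same annotation. Of the 42 genes, 4 adjoin one another as Xlr3b with Xlr4b and Xlr3c with Xlr4c. Of 50 tested neighbours that are not among the 42, 24 (48%) were higher in both long 2i libraries than in all others, against 19.5% of all genes tested. The 19.5% is not a like reference. The X chromosome, with 13 of the 42 genes, weighs more among the neighbours, and 30.0% of its other genes had this order. The 24 include Timmdc1, Adprh and Chmp2b, beside Cd80 and Vgll3 on chromosome 16, and Ino80b, beside Rtkn on chromosome 6. Of the other genes of these 2 chromosomes, 47.9% and 37.6% had this order. The 24 also include Xlr3a, Xlr5c and Pramel7, relatives of the genes they adjoin. The part of any of these in the share was not tested. Erich2, beside Gad1, had at least 1.17 CPM in long 2i and at most 0.326 CPM elsewhere, and Slc30a3, a zinc transporter beside Dnajc5g, had at least 2.97 CPM in long 2i and at most 0.932 CPM elsewhere. Other neighbours went the other way, such as Uchl1, a neuronal ubiquitin hydrolase beside Limch1, with at least 4.52 CPM in long 2i and up to 30.6 CPM elsewhere.

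At the median, the promoters had fewer CpG sites than those of the other tested genes. In the 250 bases before the first listed RefSeq start, which 36 of the 42 genes and 11136 other tested genes have in the table, the median number of CpG sites was 6.5 over the 42 genes and 15 over the others, and the median GC content was 53% against 60%. At most 5 CpG sites were found in 15 of the 36 (41.7%) and in 14.7% of the others. To show the span, the 100 bases before the start follow for Gpx2, at chr12:76795555-76795654 (-), with 0 CpG sites in its 250 bases, Efhc2, at chrX:17319942-17320041 (-), with 4, and Limch1, at chr5:66745789-66745888 (+), with 30, all from RefSeq for GRCm38.p6 with CpG sites in capitals.
Gpx2: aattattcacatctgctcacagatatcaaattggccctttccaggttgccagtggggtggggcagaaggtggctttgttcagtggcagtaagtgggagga
Efhc2: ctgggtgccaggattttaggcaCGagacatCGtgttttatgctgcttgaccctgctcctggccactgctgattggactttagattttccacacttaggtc
Limch1: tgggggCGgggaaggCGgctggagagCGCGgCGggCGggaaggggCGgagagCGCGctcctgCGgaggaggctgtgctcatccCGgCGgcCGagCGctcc
All 3 genes belong to the 42, which thus include CpG-free and CpG-rich promoters.

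In all, 5 short motifs were searched on both strands of the same 250 bases. CTTTGAT, a core of the sites of the TCF/LEF partners of β-catenin, was found in 2 of 36 promoters (5.56%), those of Nr2f2 and Tgm1, and in 2.24% of the others. TATAAA was found in 4 (11.1%), those of Cited1, Gad1, Kdm5d and Trpv5, against 6.21% of the others, TGACTCA, the AP-1 site, in 1 (2.78%) against 2.95%, and CACGTG, the E-box, in 2 (5.56%) against 8.49%. GGGCGG, the GC box, was found in 11 (30.6%) against 59.2% of the others. A match here is a description of the letters and not of a bound site, and the GC box overlaps with the CpG count. For the motifs, too, the others are not a like reference, and the Xlr copies are counted separately.

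Markers of other cell types were set beside these results. Summed over its 11 genes, the germ cell list had 162 to 180 CPM in long 2i, 120 to 125 CPM in second 2i, 129 to 145 CPM in first 2i, 133 to 143 CPM in serum return and 75.6 to 90.8 CPM in serum, with no marker at 0 in long 2i. The endoderm list, which holds Dab2, had 16.4 to 19.6 CPM in long 2i, 7.01 to 7.52 CPM in second 2i, 6.96 to 7.81 CPM in first 2i, 62.2 to 65.1 CPM in serum return and 51.7 to 54.5 CPM in serum. Long 2i was thus highest in the germ cell list and above the short 2i cultures, yet below serum, in the endoderm list. The list of endothelium and blood, the lineage of Was and Cd80, had 17.8 to 18.3 CPM in long 2i, 7.28 to 8.73 CPM in second 2i, 5.25 to 5.79 CPM in first 2i, 14.9 to 16.7 CPM in serum return and 15.5 to 17.5 CPM in serum.

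The neural list had 188 to 189 CPM in long 2i, 229 to 245 CPM in second 2i, 259 to 271 CPM in first 2i and 95.5 to 105 CPM in the 4 serum libraries, with Dcx, Neurog2 and Rbfox3 among the markers at 0 in long 2i. Most of its markers did not follow this sum. Of 10 tested, 1 rose and 8 fell in first 2i against serum (35.1% of all genes tested were called higher and 34.9% lower). In second 2i against serum return 2 rose and 8 fell (32.3% higher and 33.3% lower). The lists of muscle and fibroblasts stood lower in long 2i than in serum, but not lower than in every short 2i culture. The muscle list had 13.7 to 16.1 CPM in long 2i, 20.7 to 21.4 CPM in second 2i and 10.7 to 10.8 CPM in first 2i. The fibroblast list had 311 to 324 CPM, 184 to 193 CPM and 326 to 336 CPM, in that order. Myod1, Myog and Actc1, defining genes of muscle, were at 0 in long 2i. The trophectoderm list had 93.5 to 99.6 CPM in long 2i and 33.8 to 133 CPM elsewhere, with Hand1, Plac1 and Tpbpa at 0 in long 2i. The part of any admixed cell type in the levels of the 42 genes was not tested.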

How the data were processed

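Total RNA of the 10 libraries was sequenced, and what the authors deposited are raw counts of reads for each gene. The submitters' processing notes name mm9 as the build and list HTSeq 0.5.4p5, TopHat2 2.0.4, CASAVA 1.8.2 and DESeq2, the last without a version. Annotation, strand setting and read layout were not given in the sources used here, so overlapping and antisense genes are uncertain. The tables list 24015 genes, and their 5 summary rows entered neither totals nor tests: reads aligned to more than 1 place made up 33.4 to 36.5% of records, reads outside features 10.3 to 11.8% and ambiguous reads 0.687 to 0.730%. Group and replicate came from the labels, whose titles fall into 2 series, LEM and MLE, that each cover the 5 groups and are not explained.

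CPM was computed as the count times 1000000 over the library's gene counts. The test was that of edgeR 4.0.16 in R 4.3.3: filterByExpr by group (minimum count 10, minimum total 15) left 14220 genes, and a robust quasi-likelihood fit with TMM factors used all 10 libraries with group as the only term, which left 5 residual degrees of freedom and a common biological coefficient of variation of 0.0491. The 5 contrasts were two-sided, and p-values were adjusted over the genes tested. The standard error of a fold change was taken from its F statistic. The steps were tested on simulated counts. A fold from all libraries is given only where the lower group had more than 3 counts, and a group without counts was set to 3 counts over the group, which covers counting error only. Folds and differences without 1 library were not held to this limit and are uncertain. For example, the library left in the lower group held 2 counts of Gpx2 in serum, 3 of Xlr3b in serum and 3 of Cdkl4 in second 2i.

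The same-series libraries deviated together only weakly (correlations of 0.0994 to 0.168 between groups, 1 of them under 0.1), so the series were not treated as pairs. Chromosomes, neighbours and promoters came from RefSeq for GRCm38.p6, matched by symbol or synonym (42 of the 42 genes and 14160 of the tested genes), and no coordinates were converted between builds. Chromosome medians used log2 ratios with a pseudocount of 0.1 CPM. The named genes followed a rule on level, ratio, adjusted p, list membership, neighbourhood and closeness to the limit, and the rest of the 42 genes and their relatives were named after their values were seen. The values of 1 of the 42 genes are not reported here by name, though it is in every count. The genes, lists, motifs and families were chosen with earlier results of these data known. Alternatives were other scaling, no filter, the DESeq2 1.42.0 Wald test, a fit without long 2i, the title series as a block, other limits for the choice of genes and leaving out each library in turn, which leaves 1 library in its group, assumed to vary like the others.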

Additional observations from a re-analysis of the deposited data

Results flagged for a closer look

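In edgeR the difference between second 2i and serum return was unlike that between first 2i and serum for 15 of the 42 genes, 14 lower (21% of all genes tested were called lower) and 1 higher (18.4% called higher), and 10 of the 15 missed the threshold without 1 library or more. The values are the log2 fold change of second 2i over serum return minus that of first 2i over serum. The formula gives equal weight to a serum return level unlike serum and a second 2i level unlike first 2i. Which of these was larger varied among the genes, with the serum step larger in Pou2f3, Fgfbp1, Xlr3b, Efhc2, 1700013H16Rik, Xlr3c, 9030617O03Rik and Gm364. The 2i step was larger in Fam198b, Cdkl4, Ano3, Fgfr2 and Gad1, and Nxf3 and Kdm5d were not split. The values held both steps. On the log2 scale they were -2.60 for Pou2f3, 2.73 for Fgfbp1, -1.24 for 9030617O03Rik, -2.18 for Cdkl4 and -1.31 for Fam198b. They were -1.35 for Efhc2, -4.12 for Kdm5d, -1.83 for Xlr3c, -1.82 for 1700013H16Rik and -2.22 for Nxf3. They were -2.27 for Ano3, -1.53 for Fgfr2, -1.18 for Gm364, -1.78 for Xlr3b and -1.68 for Gad1. The values of Kdm5d and Nxf3 depend on the prior count, since serum held 1 and 3 of their counts. Single libraries moved several values by more than 1.5 times. Without replicate 1 of serum the value was -6.46 for Kdm5d, -2.61 for Xlr3c, -1.07 for Xlr3b and -3.00 for Gad1. Without replicate 2 of serum it was -3.24 for Pou2f3, -3.32 for Kdm5d, -2.14 for Fgfr2, -3.03 for Xlr3b and -1.05 for Gad1. Leaving out replicate 1 of serum return gave -4.87 for Kdm5d and -0.89 for Xlr3c, and leaving out its replicate 2 gave -3.01 for Kdm5d. Without replicate 1 of second 2i Cdkl4 had -3.40 and Ano3 -3.83, and without its replicate 2 both had -1.52.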

How the results depend on the processing

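Of 97 calls made for the 42 genes over the 5 contrasts, 59 held under every alternative that gave a value, and 0 changed direction. Without 1 library at a time, the genes that met the limits numbered 42 to 49, and by construction this number could not fall below 42. The genes called numbered 23 to 28 higher and 3 to 4 lower in first 2i against serum, 18 to 23 higher and 3 to 5 lower in second 2i against serum return, 5 to 10 higher and 3 to 4 lower in serum return against serum, and 3 to 5 higher and 4 to 8 lower in second against first 2i. For the difference of the responses they numbered 1 to 3 higher and 8 to 14 lower. That difference was called higher for 3 genes with no filter, 2 with the DESeq2 Wald test and 3 with the replicate block, against 1 in the result given, and the cause was not tested. With the title series as a replicate block, the other counts stayed within 1.5 times, and all series correlations were above 0. By construction, other limits changed the number of genes: 94 at 2-fold, 24 at 5-fold, 83 at 1 CPM and 22 at 10 CPM, and 36 remained without Xlr symbols, an alternative chosen after seeing the data. Of the 42 genes, 41 met the limits with TMM-scaled CPM. In the DESeq2 Wald test 1 call was lost in first 2i against serum, Usp9y and Sp6 (adjusted p from 0.0594 to 0.113) in second 2i against serum return, Xlr3c and Cd80 (0.081 to 0.121) in serum return against serum and 9030617O03Rik and Trpv5 (0.0552 to 0.121) in second against first 2i. The Wald test also lost Xlr3c, Fgfr2 and Gad1 (0.0559 to 0.0742) in the difference of the responses, and a fit without long 2i lost Gad1 there (0.0625), Trpv5 (0.0619) in second against first 2i and Cd80 (0.0682) in serum return against serum. With 2 libraries a group and few counts outside long 2i, small differences between the other groups were not detectable for many of the genes.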

Other observations

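Of 65 tested relatives of the genes, looked up after the values were seen, 15 (23.1%) were higher in both long 2i libraries than in all 8 others, against 19.5% of all genes tested. Kdm5a and Kdm5c, demethylases of the same family as Kdm5d, were among them, with 197 and 192 CPM in long 2i against at most 166 CPM elsewhere for Kdm5a, and 353 and 361 CPM against at most 278 CPM for Kdm5c. Kdm5a lies on chromosome 6 and Kdm5c on X, whose other genes were also higher in long 2i (median log2 ratios 0.28 and 0.21). Pramel3 had 1.43 and 1.44 CPM in long 2i and at most 0.0543 CPM elsewhere. Kdm5b, a further autosomal relative of Kdm5d, had 316 and 314 CPM in long 2i, against 685 to 955 CPM in the other 8 libraries, and lies on chromosome 1, whose other genes were also lower in long 2i (median log2 ratio -0.48). Cited2, a coactivator related to Cited1, had 41.3 and 44.4 CPM in long 2i and 80 to 140 CPM elsewhere. Cd86, the other ligand of CD28, had at most 0.106 CPM in long 2i and at most 0.142 CPM elsewhere. Sp5, an Sp factor known as a Wnt target, had 20.6 and 29.9 CPM in long 2i, 21.2 and 27.6 CPM in second 2i, 12.04 and 17.3 CPM in first 2i, 0.0720 and 0.185 CPM in serum return and 0.0945 and 0.103 CPM in serum, so it separated the media with long 2i beside second 2i, unlike Sp6.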
